A study of Mus musculus with 13 samples.

Results

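The 10 genes described here, Abca1, Abcg1, Apoe, Apoc1, Apoc2, Apoc4, Mylip, Srebf1, Scd2 and Pltp, are named together as cholesterol efflux, apolipoprotein and lipid genes of the LXR pathway. Their probes were picked out by gene name, and 11 of the 41174 non-control probes of the array carried one of these names. The set of genes was chosen with earlier results of these data known. The array has 1 probe for each gene except Mylip, which has 2, and 9 of the 10 genes were bright enough to enter a test over 20894 genes.

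RNA came from cultured mouse bone marrow-derived macrophages and was hybridised to 13 one-colour Agilent whole-genome arrays. HDAC3 knockout (KO) cells treated with vehicle were measured on 3 arrays, control cells treated with vehicle on 4, KO cells treated with IL-4 on 3 and control cells treated with IL-4 on 3. KO cells came from mice labelled LysM Cre+, HDAC3 floxed, in which the lysozyme M promoter, active in myeloid cells, drives Cre. Control cells came from HDAC3 floxed mice with loxP sites around exons 4 to 7 and with no Cre on the label, so Cre itself and loss of HDAC3 cannot be told apart. All donors were C57BL/6 males of 12 to 16 weeks, and marrow was grown for 6 days in 30% L929-conditioned medium. Cells then received 0.1% bovine serum albumin as the vehicle, or IL-4 at 10 ng/mL, for 24 hours. Nothing in the labels tells whether arrays within a group had different mice or cultures as their source. The p-values therefore speak only of array-to-array spread, which may be technical.

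The liver X receptors, LXRα and LXRβ, are nuclear receptors for oxysterols that bind DNA as heterodimers with the retinoid X receptors. Without ligand they recruit nuclear corepressor complexes, which carry HDAC3 as their histone deacetylase, and with ligand they exchange these for coactivators. In macrophages their targets move surplus cholesterol out of the cell: ABCA1 and ABCG1 export it, apolipoproteins E and C carry it, and PLTP remodels the particles that receive it. The same receptors induce MYLIP (also called IDOL), which sends lipoprotein receptors for degradation, and SREBP-1c, the product of Srebf1 that switches on fatty acid synthesis. IL-4 drives macrophages toward alternative activation.

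An LXR response element is a pair of hexamers 4 bases apart. The RefSeq upstream sequences of Abca1 and Srebf1 are shown because the hexamers TGACCG and TAACCC with any 4 bases between them, a form chosen from what is known of these promoters, were found in both. Among 32851 windows running from 250 bases before to 50 bases after a gene's start, 3 held it on either strand, which is 0.00913% of windows. Of the genes described here 7 had a window. Each sequence is the 250 bases before the start, on the minus strand of GRCm38.p6 and written 5′ to 3′, with the matched pair in capitals.
Abca1, chr4:53159896-53160145: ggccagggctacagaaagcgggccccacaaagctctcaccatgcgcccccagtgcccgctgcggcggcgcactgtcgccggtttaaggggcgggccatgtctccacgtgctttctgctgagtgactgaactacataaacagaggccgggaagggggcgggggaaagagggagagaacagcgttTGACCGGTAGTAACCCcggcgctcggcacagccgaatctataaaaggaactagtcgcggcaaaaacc
Srebf1, chr11:60210472-60210721: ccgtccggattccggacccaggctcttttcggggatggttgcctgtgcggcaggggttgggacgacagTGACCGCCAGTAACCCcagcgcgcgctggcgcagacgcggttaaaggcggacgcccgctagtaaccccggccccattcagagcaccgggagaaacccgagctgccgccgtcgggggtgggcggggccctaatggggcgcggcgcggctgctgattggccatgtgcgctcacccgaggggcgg
The pair runs from 67 to 52 bases before the Abca1 start and from 182 to 167 bases before the Srebf1 start. A match in the letters shows neither that the receptors were bound there nor that the gene responded, and the Abca1 and Srebf1 probes gave different results.

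Hdac3 RNA, the product of the targeted gene, was at log2 levels of -3.71, -3.16 and -3.51 on the KO vehicle arrays, against -1.75, -2.18, -2.05 and -2.21 on the control vehicle arrays. A log2 level here is the log2 of the background-corrected spot intensity minus the 75th percentile of its array, so 0 is that percentile. Under IL-4 it was at -3.21, -3.41 and -4.09 on the KO arrays, against -1.95, -2.34 and -1.85 on the control arrays. KO and control arrays did not overlap in either treatment, and the array at -4.09 was the only 1 on which the probe was not well above background. Hdac3 was lower in KO cells by a log2 fold change of -1.41 (SE 0.22, limma adjusted p = 0.00292) in vehicle and -1.53 (SE 0.23, limma adjusted p = 0.00381) under IL-4. Whether the probe lies within the floxed exons was not determined here.

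All 8 macrophage markers examined, among them Csf1r, Cd68, Adgre1 and Lyz2, were well above background on all 13 arrays. Their summed level, in multiples of the array's 75th percentile, was 519 to 540 in KO vehicle cells and 529 to 580 in control vehicle cells. It was 503 to 538 in KO IL-4 cells and 459 to 485 in control IL-4 cells, so these last groups did not overlap. The sum is of linear levels, so the brightest markers weigh most. Lyz2, the brightest, was at log2 levels of 7.49, 7.44 and 7.52 on KO IL-4 arrays, against 7.23, 7.20 and 7.13 on control IL-4 arrays. Its share of the gap was not tested. The summed levels of neutrophil markers (2.88 to 10.8 over all arrays), B cell markers (1.03 to 1.52), dendritic cell markers (1.04 to 1.86) and fibroblast markers (4.20 to 6.02) overlapped between KO and control cells in both treatments. The same held for T and NK cell, mast cell and erythroid markers. Elane of the neutrophil list and Cd209a of the dendritic cell list were well above background on 0 arrays. A stress and RNA quality list (Fos, Jun, Hmox1 and others) summed to 153 to 205 in KO vehicle cells and 135 to 181 in control vehicle cells, and to 199 to 234 in KO IL-4 cells and 148 to 219 in control IL-4 cells. Its part in the results was not tested. The share of spots well above background was 56.2% to 83.2%, lowest on control vehicle array 4 and next lowest, at 61.1%, on KO IL-4 array 15. Each group sat at 1 position of the slides, so a position effect and a group effect cannot be told apart.

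Loss of HDAC3 went with higher RNA of 5 of the 9 tested genes in vehicle-treated cells, Apoc1, Apoc2, Scd2, Abca1 and Apoe, and with lower RNA of none. Over all 20894 genes 2.39% were called higher, 2.29% lower and 4.68% in either direction, a call being a limma adjusted p under 0.05. Groups did not overlap for 5 of the 9 genes, all 5 higher in KO cells, where 16.8% of all genes had groups that did not overlap, 8.8% with KO higher and 8.04% with KO lower. The same 5 genes were called higher in KO cells under IL-4, and none lower, where 1.94% of all genes were called higher, 1.65% lower and 3.59% in either direction. There 6 of the 9 did not overlap, all with KO higher, where 17.8% of all genes did not, 8.72% with KO higher and 9.06% with KO lower. The median log2 fold change of the 9 genes was 0.386 in vehicle and 0.546 under IL-4, against 0.0222 and -0.0282 over all genes. Abcg1, Mylip, Srebf1 and Pltp did not pass in either treatment. The 2 comparisons contrast different arrays, but they share the same fit, its estimate of each gene's spread and slides. They are therefore not independent repeats, and the genes were chosen with results of these arrays already known. In cultures measured in bulk, fewer cells of a type and less RNA per cell cannot be told apart.

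IL-4 went with a mixed response of the same 9 genes in control cells. Scd2 and Abcg1 rose and Apoc2 and Mylip fell, where 5.7% of all genes were called in either direction, 2.64% higher and 3.05% lower. IL-4 and vehicle arrays did not overlap for 2 genes that were higher and 4 that were lower, where 16.7% of all genes did not, 8.26% higher and 8.41% lower. In KO cells limma called none of the 9 genes after IL-4, where 2.22% of all genes were called, 1.12% higher and 1.1% lower. Before adjustment 6 of the 9 had p under 0.05, as did 12.4% of all genes. The arrays did not overlap for 3 higher and 3 lower genes, where 18.5% of all genes did not, 8.05% higher and 10.5% lower. The median log2 fold change of the 9 genes with IL-4 was -0.0283 in KO cells and -0.269 in control cells, against -0.0619 and -0.00202 over all genes.

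**Figure D1:**
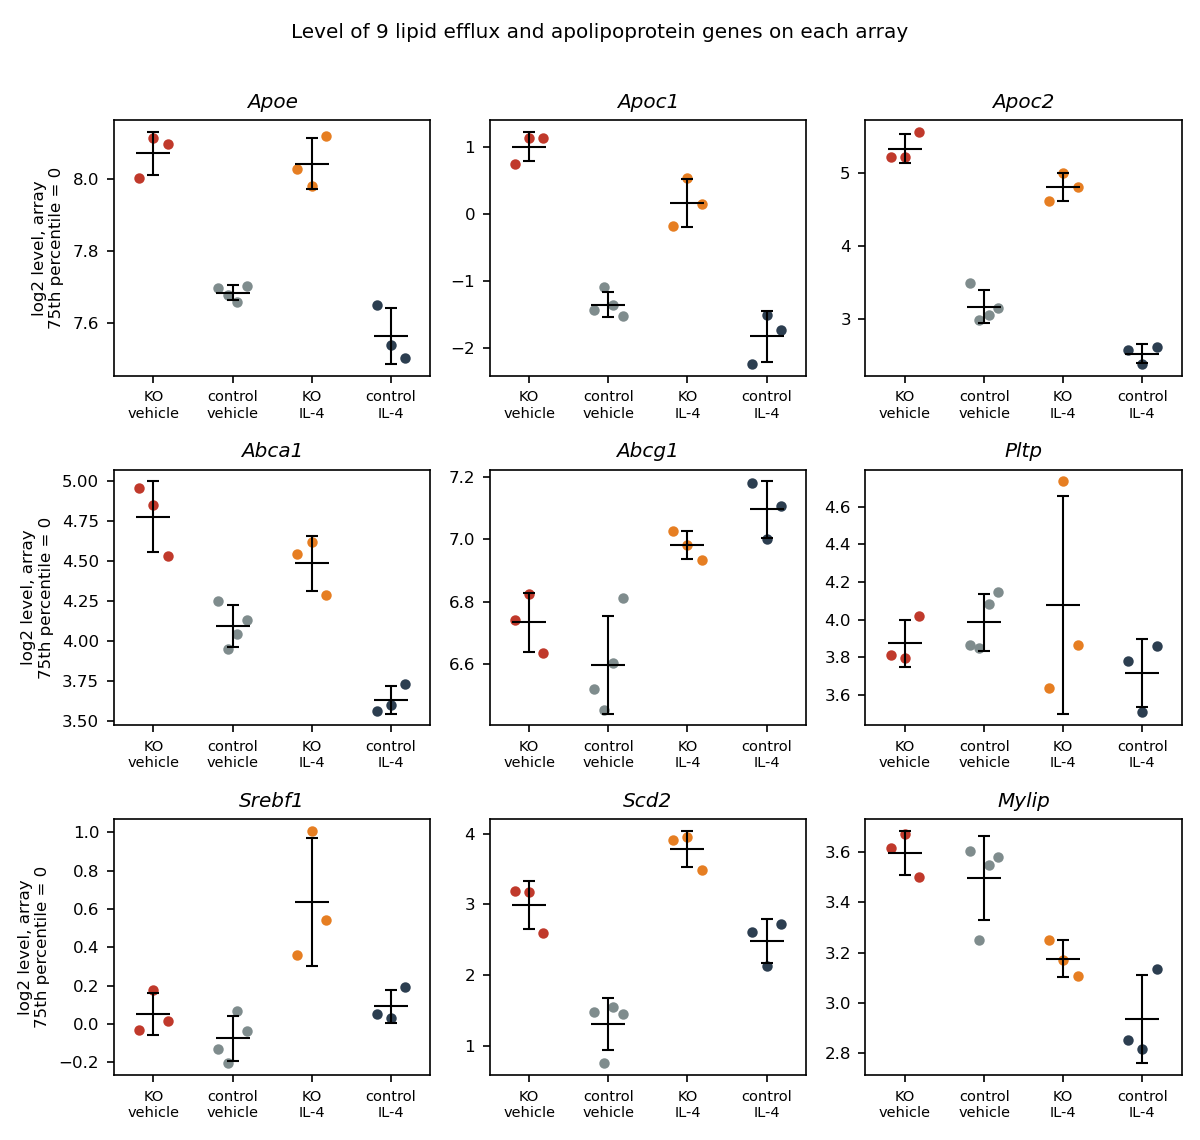
Log2 level of the 9 tested genes (y axis, array 75th percentile at 0) on each array, by group along the x axis. Points are arrays, and the bar and whiskers are the group mean and SD (n = 3, or 4 for control vehicle). Apoc1, Apoc2, Scd2, Abca1 and Apoe lie higher on every KO array than on every control array of the same treatment.

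Apolipoprotein E, the main apolipoprotein that macrophages secrete, is read by a probe at chr7:20281732-20281791 on the minus strand (mm9), spotted 10 times on each array. It is printed because all Apoe values rest on it, and all 3 of its reading frames on this strand are free of stop codons.
Apoe probe: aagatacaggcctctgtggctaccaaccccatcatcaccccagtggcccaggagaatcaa
Apoe was at log2 levels of 8.002, 8.11 and 8.10 on KO vehicle arrays, against 7.70, 7.68, 7.66 and 7.70 on control vehicle arrays. Under IL-4 it was at 8.03, 7.98 and 8.12 on KO arrays, against 7.65, 7.54 and 7.50 on control arrays. Every KO array lay above every control array, by a narrow margin on a very bright probe, and the SD among spots of 1 array was 0.0458 to 0.138. The log2 fold change in KO cells was 0.39 (SE 0.08, limma adjusted p = 0.0152), or 1.31-fold, in vehicle and 0.48 (SE 0.08, limma adjusted p = 0.00815), or 1.39-fold, under IL-4.

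The Apoe calls were among the least firm of the set. With quantile normalization the vehicle difference was 0.08 (limma adjusted p = 0.761), with normexp background correction 0.19 (limma adjusted p = 0.168), and in the authors' deposited values 0.11 (limma adjusted p = 0.489). In those deposited values the difference under IL-4 was 0.22 (limma adjusted p = 0.127). Of 25 alternative runs 8 lost the vehicle call, median scaling among them. Under IL-4 5 of the 25 lost the call, with a limma adjusted p up to 0.221. With slide as a fixed block the adjusted p was 0.0665 in vehicle and 0.0561 under IL-4. Without KO vehicle array 6 or 7 the vehicle call was lost (limma adjusted p = 0.0876 and 0.0513). IL-4 left Apoe with no call, at a log2 fold change of -0.03 (SE 0.08, limma adjusted p = 0.924) in KO cells and -0.12 (SE 0.08, limma adjusted p = 0.575) in control cells.

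Apolipoprotein C-I, a small apolipoprotein that inhibits lipoprotein uptake and CETP, had the largest fold change of the 9 genes in vehicle. Its probe lies at chr7:20274856-20274915 on the minus strand (mm9). Apoc1 was at 0.76, 1.13 and 1.14 on KO vehicle arrays, against -1.43, -1.09, -1.35 and -1.52 on control vehicle arrays. Under IL-4 it was at -0.18, 0.54 and 0.15 on KO arrays, against -2.24, -1.50 and -1.73 on control arrays. All KO arrays lay above all control arrays, and Apoc1 RNA was well above background on all 13. The KO difference was 2.36 (SE 0.21, limma adjusted p = 0.000111), or 5.14-fold, in vehicle and 1.99 (SE 0.22, limma adjusted p = 0.000588), or 3.98-fold, under IL-4. Within slides 1, 2 and 3 the KO difference in vehicle was 2.19, 2.23 and 2.49, and within slides 1 and 2 it was 2.06 and 2.04 under IL-4.

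Apolipoprotein C-II, the activator of lipoprotein lipase, moved by nearly as much. Its probe lies at chr7:20257027-20257086 on the minus strand (mm9), in a gene that the reference annotation also joins to Apoc4 as a readthrough transcript, so RNA of the 2 models cannot be told apart there. Apoc2 was at 5.22, 5.22 and 5.57 on KO vehicle arrays, against 3.50, 2.98, 3.05 and 3.15 on control vehicle arrays. Under IL-4 it was at 4.63, 5.01 and 4.82 on KO arrays, against 2.58, 2.38 and 2.61 on control arrays. The lowest KO array was more than 1 log2 unit above the highest control array of either treatment. The KO difference was 2.17 (SE 0.15, limma adjusted p = 1.77e-05), or 4.50-fold, in vehicle and 2.29 (SE 0.16, limma adjusted p = 5.93e-05), or 4.91-fold, under IL-4. Within slides 1, 2 and 3 it was 1.72, 2.25 and 2.52 in vehicle, and within slides 1 and 2 it was 2.05 and 2.63 under IL-4. The Apoc1 and Apoc2 calls in KO cells held in every alternative run, each left-out array included.

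The IL-4 estimates of both apolipoprotein C genes were negative. Apoc2 had a log2 fold change of -0.52 (SE 0.16, limma adjusted p = 0.149) in KO cells and -0.65 (SE 0.15, limma adjusted p = 0.0248) in control cells, where it passed. For Apoc1 the values were -0.84 (SE 0.22, limma adjusted p = 0.0902) in KO cells and -0.47 (SE 0.21, limma adjusted p = 0.316) in control cells, and neither passed. The Apoc2 call in control cells was lost with slide as a fixed block (limma adjusted p = 0.0857) and without control vehicle array 1 or 4 or any 1 control IL-4 array (limma adjusted p = 0.0566 to 0.103). With that block the Apoc1 change in KO cells passed (limma adjusted p = 0.0185). Compared within slides 1, 2 and 4, IL-4 changed Apoc2 in control cells by -0.92, -0.60 and -0.54.

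Apolipoprotein C-IV, a minor apolipoprotein of the same cluster, was not measurable. The Apoc4 probe was well above background on 2 of 13 arrays, 1 KO IL-4 and 1 control IL-4 array, so it was not tested and no fold is given.

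Apoe, Apoc1, Apoc4 and Apoc2 lie side by side in the genome, and genes with a tested probe within 150 kb of the Apoe probe were examined beside them. Probe positions are given in kb from the Apoe probe, negative toward lower coordinates, and place Apoc1 at -6.88 kb and Apoc2 at -24.7 kb. Tomm40, a subunit of the mitochondrial import channel, lies at 17.4 kb and differed by 0.20 (SE 0.44, limma adjusted p = 0.98) in vehicle and 0.51 (SE 0.47, limma adjusted p = 0.687) under IL-4. The 95% interval for Tomm40 in vehicle, -0.76 to 1.16, is wide and lies below the Apoc1 and Apoc2 estimates. Clptm1, at -62.9 kb, differed by -0.08 (limma adjusted p = 0.977) and 0.12 (limma adjusted p = 0.822).

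Of the more distant neighbours, Relb, an NF-κB subunit at -90.0 kb, was lower in KO cells in vehicle at -0.57 (SE 0.12, limma adjusted p = 0.0196) and did not pass under IL-4 at -0.41 (SE 0.13, limma adjusted p = 0.137). Its vehicle call was lost without KO vehicle array 5, 6 or 7 or control vehicle array 2 or 4 (limma adjusted p = 0.0505 to 0.0943). Bcl3, an NF-κB cofactor at 112 kb, did not pass in vehicle at 0.19 (SE 0.13, limma adjusted p = 0.659) and was higher in KO cells under IL-4 at 0.75 (SE 0.14, limma adjusted p = 0.0106). That call was lost without control IL-4 array 12 (limma adjusted p = 0.0528) and with slide as a fixed block (limma adjusted p = 0.058). Gemin7, Zfp296, Clasrp, Bcam and Cblc did not pass in either treatment. The Bcam and Cblc probes were dim, with mean log2 levels of -3.31 and -3.24 in KO vehicle cells.

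**Figure D2:**
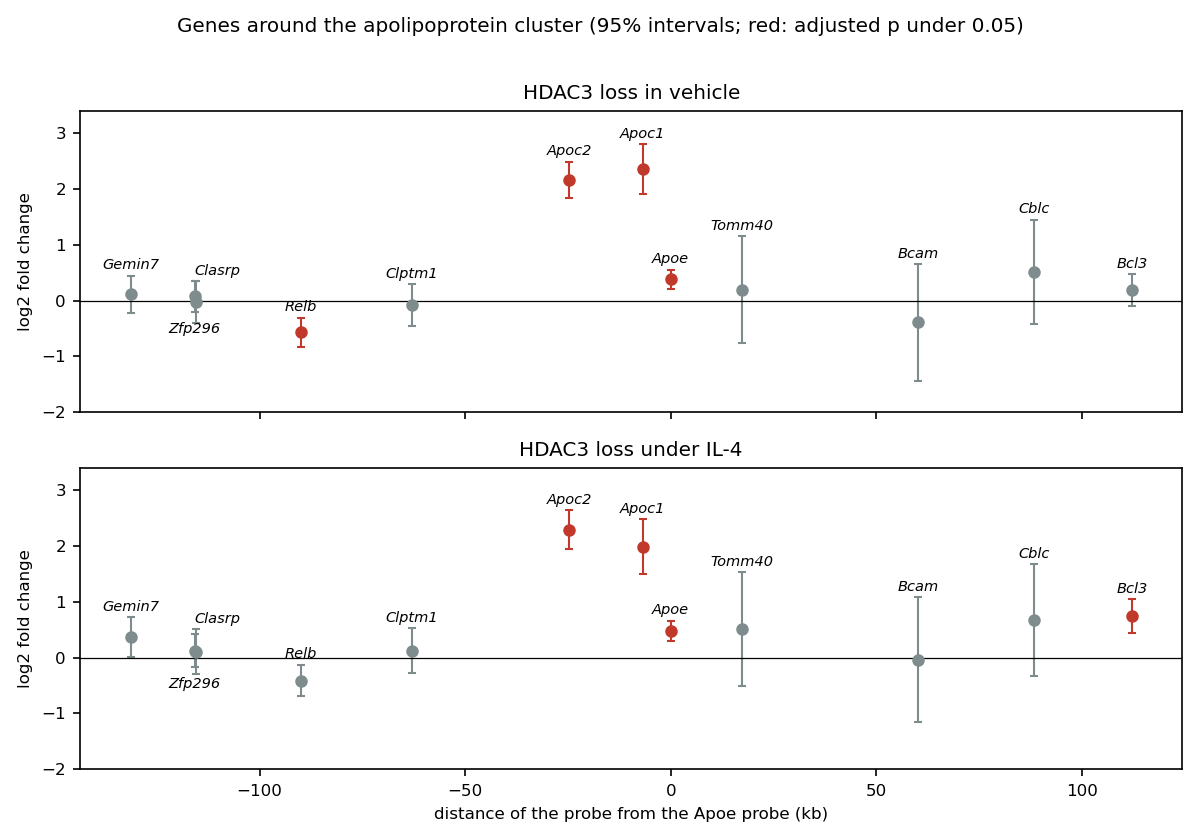
Log2 fold change in KO over control cells (y axis, with 95% confidence intervals) of genes within 150 kb of the Apoe probe, by probe distance in kb (x axis), in vehicle (top) and under IL-4 (bottom). Red points passed at a limma adjusted p under 0.05. Apoc2 and Apoc1 stand near 2 in both panels, and Apoe, Tomm40 and Clptm1 are between -0.08 and 0.51.

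ABCA1 loads cholesterol onto lipid-poor apolipoproteins and is the best-known LXR target of macrophages. Its probe lies at chr4:53043944-53044003 on the minus strand (mm9). Abca1 was at log2 levels of 4.95, 4.85 and 4.53 on KO vehicle arrays, against 4.25, 3.95, 4.04 and 4.13 on control vehicle arrays. With IL-4 its levels were 4.55, 4.62 and 4.29 on KO arrays, against 3.56, 3.60 and 3.73 on control arrays. KO arrays were higher without overlap in both treatments, by 0.68 (SE 0.13, limma adjusted p = 0.00875), or 1.61-fold, in vehicle and 0.85 (SE 0.13, limma adjusted p = 0.0046), or 1.81-fold, under IL-4. Within slides 1, 2 and 3 the difference was 0.70, 0.90 and 0.49 in vehicle, and within slides 1 and 2 it was 0.98 and 1.02 under IL-4. The vehicle call was lost without KO vehicle array 5 or 6 (limma adjusted p = 0.0593 and 0.0554), and the call under IL-4 with the compared groups alone in the fit (limma adjusted p = 0.0795). Median scaling also removed the vehicle call.

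The order of the Abca1 group means was KO vehicle (4.78 ± 0.22, SD, n = 3), KO IL-4 (4.48 ± 0.17, n = 3), control vehicle (4.09 ± 0.13, n = 4) and control IL-4 (3.63 ± 0.09, n = 3). The 2 KO groups overlapped, and the other neighbours in this order did not. IL-4 gave a log2 fold change of -0.29 (SE 0.13, limma adjusted p = 0.406) in KO cells and -0.46 (SE 0.13, limma adjusted p = 0.0584) in control cells. The second value passed with slide as a fixed block (limma adjusted p = 0.0362) and with quantile normalization (limma adjusted p = 0.0181).

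ABCG1, which exports cholesterol to mature HDL, did not follow Abca1. Its probe lies at chr17:31252580-31252639 on the plus strand (mm9). Abcg1 was at 6.74, 6.83 and 6.64 on KO vehicle arrays, against 6.52, 6.45, 6.60 and 6.81 on control vehicle arrays, and these groups overlapped. After IL-4 its levels were 7.03, 6.98 and 6.93 on KO arrays, against 7.18, 7.00 and 7.11 on control arrays, which also overlapped. The KO difference was 0.14 (95% interval -0.09 to 0.36, limma adjusted p = 0.72) in vehicle and -0.11 (95% interval -0.35 to 0.12, limma adjusted p = 0.701) under IL-4. Both intervals lie below the Abca1 estimate of the same treatment, but a difference between the 2 genes was not tested.

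Abcg1 instead separated the treatments. With IL-4 it rose in control cells by 0.50 (SE 0.10, limma adjusted p = 0.0123), or 1.41-fold, and in KO cells, at 0.25 (SE 0.11, limma adjusted p = 0.378), it did not pass. Compared within slides 1, 2 and 4, the difference in control cells was 0.66, 0.55 and 0.29, and the IL-4 arrays did not overlap the vehicle arrays in either genotype. The call was lost without control IL-4 array 9 or 12 (limma adjusted p = 0.0554 and 0.0551), with median scaling (limma adjusted p = 0.0723) and with the compared groups alone in the fit (limma adjusted p = 0.0629).

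PLTP transfers phospholipids between lipoprotein particles. The Pltp probe crosses an intron, spanning chr2:164666010-164669966 on the minus strand (mm9). Pltp was at 3.81, 3.79 and 4.02 on KO vehicle arrays, against 3.87, 3.85, 4.08 and 4.14 on control vehicle arrays. In IL-4-treated cells its levels were 3.64, 4.73 and 3.86 on KO arrays, against 3.78, 3.51 and 3.86 on control arrays. Only KO IL-4 array 14 stood apart, and no comparison of Pltp passed. The KO difference was -0.11 (95% interval -0.59 to 0.37, limma adjusted p = 0.973) in vehicle and 0.36 (95% interval -0.15 to 0.87, limma adjusted p = 0.532) under IL-4. Without that array the difference under IL-4 was 0.03.

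Srebf1 encodes SREBP-1a and the LXR-induced SREBP-1c, and its single probe, at chr11:60013214-60013273 on the minus strand (mm9), was not assigned to either isoform. Srebf1 was at -0.03, 0.18 and 0.01 on KO vehicle arrays, against -0.13, -0.21, 0.07 and -0.03 on control vehicle arrays. Its IL-4 levels were 0.36, 1.01 and 0.54 on KO arrays, against 0.05, 0.03 and 0.19 on control arrays. The vehicle groups overlapped, while all KO IL-4 arrays lay above all other arrays. The KO difference was 0.13 (SE 0.14, limma adjusted p = 0.887) in vehicle and 0.55 (SE 0.15, limma adjusted p = 0.0843) under IL-4. IL-4 gave 0.59 (SE 0.15, limma adjusted p = 0.0856) in KO cells and 0.17 (SE 0.14, limma adjusted p = 0.718) in control cells. With a trended, robust variance the KO difference under IL-4 passed (limma adjusted p = 0.0436), as did IL-4 in KO cells (limma adjusted p = 0.037). Without KO IL-4 array 13 both also passed (limma adjusted p = 0.0338 and 0.0343). Other left-out arrays weakened them. Over the 13 such fits the KO difference under IL-4 ran from 0.36 to 0.68 (limma adjusted p up to 0.225). The IL-4 change in KO cells ran from 0.40 to 0.72 (limma adjusted p up to 0.256).

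Scd2, a stearoyl-CoA desaturase that makes monounsaturated fatty acids, was called higher with HDAC3 loss in both treatments and with IL-4 in control cells. Its probe lies at chr19:44381024-44381083 on the plus strand (mm9). Desaturase genes of this cluster are close in sequence, and cross-hybridisation was not tested. Scd2 was at 3.18, 3.18 and 2.60 on KO vehicle arrays, against 1.47, 0.75, 1.54 and 1.45 on control vehicle arrays. Its IL-4 levels were 3.91, 3.95 and 3.49 on KO arrays, against 2.60, 2.13 and 2.72 on control arrays. None of these KO groups overlapped its control group, and none of the IL-4 groups its vehicle group.

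The KO difference of Scd2 was 1.68 (SE 0.23, limma adjusted p = 0.00148), or 3.21-fold, in vehicle and 1.30 (SE 0.25, limma adjusted p = 0.0132), or 2.46-fold, under IL-4. With IL-4 it was 0.80 (SE 0.25, limma adjusted p = 0.16) in KO cells, which did not pass, and 1.18 (SE 0.23, limma adjusted p = 0.00989) in control cells, which did. These comparisons share arrays. Within slides 1, 2 and 3 the KO difference in vehicle was 1.71, 2.43 and 1.06, and within slides 1 and 2 it was 1.30 and 1.82 under IL-4. The call under IL-4 was lost without control IL-4 array 10 (limma adjusted p = 0.0616), without KO IL-4 array 14 (limma adjusted p = 0.0562) and with the compared groups alone in the fit (limma adjusted p = 0.0727). The IL-4 call in control cells was lost without control IL-4 array 12 (limma adjusted p = 0.0567).

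Mylip, the ubiquitin ligase that acts on lipoprotein receptors, is read by probes at chr13:45506979-45507038 and chr13:45503808-45503867 on the plus strand (mm9), and the second was well above background on 0 arrays. From the first, Mylip was at 3.62, 3.67 and 3.50 on KO vehicle arrays, against 3.61, 3.25, 3.55 and 3.58 on control vehicle arrays. With IL-4 its levels were 3.25, 3.17 and 3.11 on KO arrays, against 2.85, 2.82 and 3.14 on control arrays. KO and control arrays overlapped in both treatments, and the KO difference was 0.10 (95% interval -0.15 to 0.35, limma adjusted p = 0.897) in vehicle and 0.24 (95% interval -0.03 to 0.51, limma adjusted p = 0.405) under IL-4. With IL-4 the change was -0.42 (SE 0.12, limma adjusted p = 0.131) in KO cells and -0.56 (SE 0.12, limma adjusted p = 0.0127), to 67.8% of the vehicle level, in control cells. Compared within slides 1, 2 and 4, the change in control cells was -0.75, -0.43 and -0.44. The call was lost without control IL-4 array 9 or 10 (limma adjusted p = 0.0575 and 0.0611), with median scaling (limma adjusted p = 0.105) and with the compared groups alone in the fit (limma adjusted p = 0.0684).

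**Figure D3:**
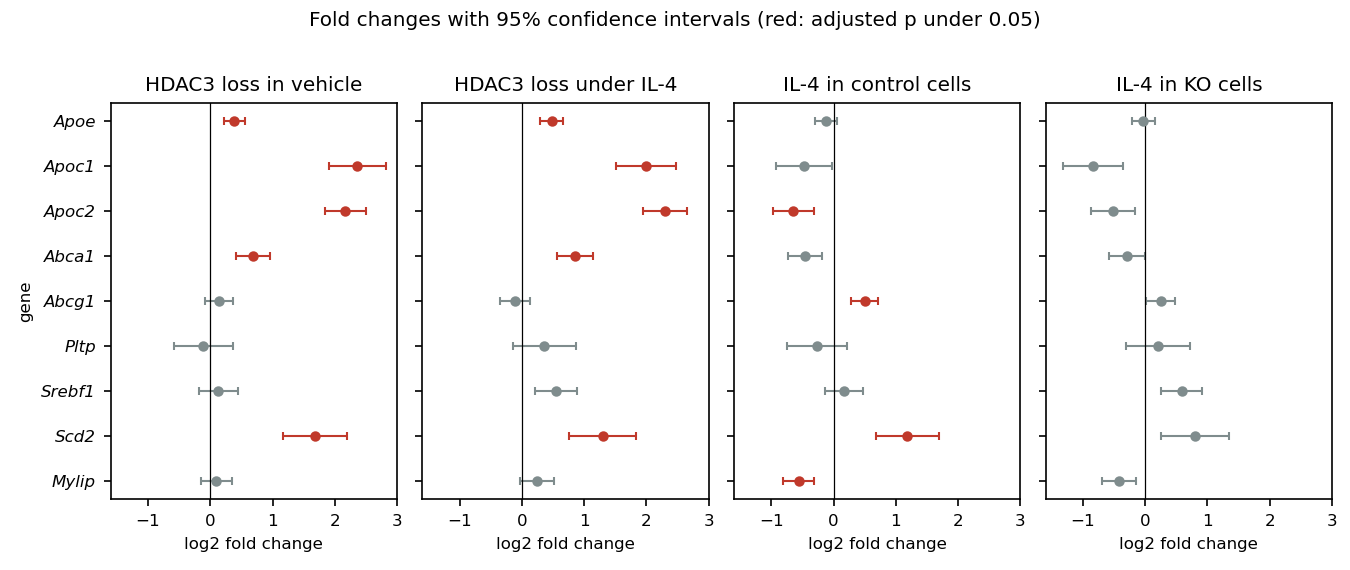
Log2 fold change (x axis) with 95% confidence intervals for the 9 tested genes (rows) in the 4 comparisons, KO over control in one pair of panels and IL-4 over vehicle in the other. Red points passed at a limma adjusted p under 0.05. Apoc1, Apoc2 and Scd2 lie between 1.30 and 2.36 in both KO comparisons, and Abcg1, Pltp and Mylip have intervals across 0 there.

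The difference of the KO effect between treatments was tested as an interaction for each gene. Limma called 0 of the 9 genes, with 0 at an unadjusted p under 0.05. Over all genes 0.00479% were called, and 3.91% had an unadjusted p under 0.05. The largest estimates were 0.47 for Pltp (95% interval -0.22 to 1.17) and 0.42 for Srebf1 (95% interval -0.04 to 0.87). For Apoc1 the interaction was -0.37 (95% interval -1.03 to 0.30), for Apoc2 0.13 (95% interval -0.35 to 0.60) and for Abca1 0.17 (95% interval -0.24 to 0.57). With 3 or 4 arrays a group, the data are compatible with any difference inside those intervals.

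The receptors that act on these genes are Nr1h3 (LXRα), Nr1h2 (LXRβ), Rxra and Rxrb, the 4 tested of 5 listed, and 1 of the 4 passed in each KO comparison, where 4.68% of all genes did in vehicle and 3.59% under IL-4. Rxra was at 3.57, 3.81 and 3.60 on KO vehicle arrays, against 3.14, 3.06, 3.12 and 3.12 on control vehicle arrays, a difference of 0.55 (SE 0.13, limma adjusted p = 0.0361). After IL-4 its levels were 3.46, 4.03 and 3.67 on KO arrays, against 3.24, 2.95 and 3.01 on control arrays, a difference of 0.66 (SE 0.14, limma adjusted p = 0.0242). The groups did not overlap, yet the Rxra calls were weak. With slide as a fixed block the adjusted p was 0.104 in vehicle and 0.0866 under IL-4. The vehicle call was lost without any 1 of the 3 KO vehicle or 4 control vehicle arrays, KO IL-4 array 15 or control IL-4 array 12 (limma adjusted p = 0.0514 to 0.184). The call under IL-4 was lost without KO IL-4 array 14 or 15 or control IL-4 array 10 or 12 (limma adjusted p = 0.0586 to 0.0997).

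Nr1h3, also listed here among the other LXR targets, was at 0.07, 0.40 and 0.23 on KO vehicle arrays, against 0.55, 0.70, 0.89 and 0.76 on control vehicle arrays. These arrays did not overlap, but the difference of -0.49 did not pass (limma adjusted p = 0.0908). Under IL-4 the KO and control arrays overlapped, and the difference was -0.38 (limma adjusted p = 0.271). Nr1h2 was at -0.19 (limma adjusted p = 0.686) and 0.15 (limma adjusted p = 0.709). Of the corepressor genes, Hdac3 was lower and Tbl1xr1, a subunit that exchanges corepressors for coactivators, was higher in KO cells, by 0.55 (SE 0.13, limma adjusted p = 0.0299) in vehicle and 0.86 (SE 0.14, limma adjusted p = 0.00447) under IL-4. The vehicle call of Tbl1xr1 was lost without any 1 KO vehicle or control vehicle array (limma adjusted p = 0.0554 to 0.163) and with slide as a fixed block (limma adjusted p = 0.0558). Ncor1, which encodes the corepressor NCoR, Gps2 and Tbl1x did not pass in either KO comparison.

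Of 12 other listed LXR targets 10 were tested. With HDAC3 loss in vehicle 0 were called higher and 2 lower, where 2.39% and 2.29% of all genes were, with a median log2 fold change of 0.0601 against 0.0222 over all genes. Under IL-4 1 was higher and 0 lower, where 1.94% and 1.65% of all genes were, with a median of -0.0264 against -0.0282. The lower ones in vehicle were Cd5l, a secreted survival factor of macrophages, at -1.78 (SE 0.43, limma adjusted p = 0.0372), and Acsl3, an acyl-CoA synthetase, at -0.50 (SE 0.12, limma adjusted p = 0.0412). Cd5l lost its call without KO vehicle array 5 or 7, any 1 control vehicle array or control IL-4 array 10 (limma adjusted p = 0.0515 to 0.191). The Acsl3 call was lost in 9 of the 13 fits that left out an array (limma adjusted p = 0.0515 to 0.21) and with slide as a fixed block (limma adjusted p = 0.0518). Mertk, the receptor by which macrophages take up apoptotic cells, was higher under IL-4 at 0.73 (SE 0.14, limma adjusted p = 0.0121), and 0.29 (limma adjusted p = 0.343) in vehicle did not pass.

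With IL-4 in control cells 1 of these other targets was called higher and 3 lower, where 2.64% and 3.05% of all genes were. Arl4c, a small GTPase linked to cholesterol transport, rose by 0.87 (SE 0.12, limma adjusted p = 0.00208) in KO cells and 1.18 (SE 0.11, limma adjusted p = 5.79e-05) in control cells. Acsl3 had a change of -0.87 (SE 0.13, limma adjusted p = 0.00398) in KO cells and -1.20 (SE 0.12, limma adjusted p = 0.000113) in control cells. These were the only 2 of the 10 called in KO cells, 1 in each direction, where 2.22% of all genes were called. In control cells Mertk at -0.90 (SE 0.13, limma adjusted p = 0.00131) and Smpdl3a, a phosphodiesterase, at -0.38 (SE 0.09, limma adjusted p = 0.0273) were lower too. The Smpdl3a call was lost in 6 of the 13 fits that left out an array (limma adjusted p = 0.0507 to 0.124) and with slide as a fixed block (limma adjusted p = 0.0587).

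**Figure D4:**
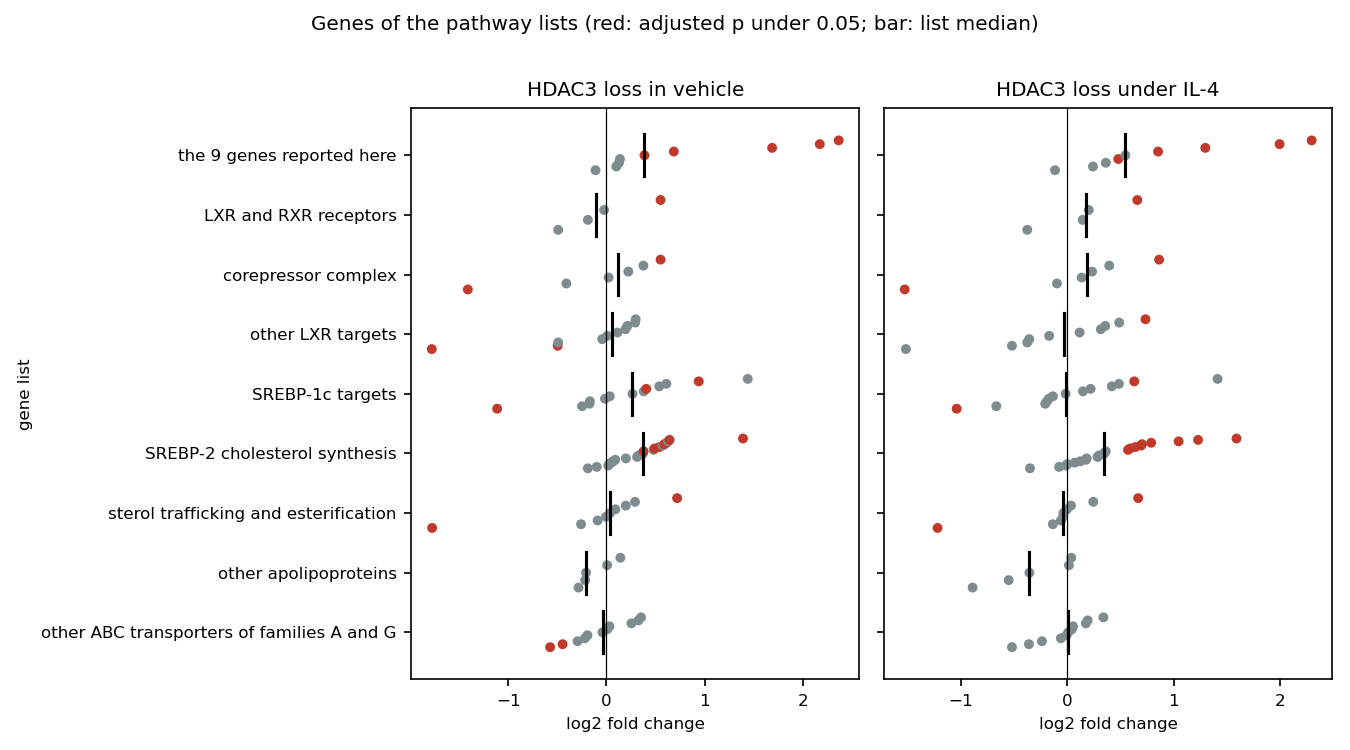
Log2 fold change in KO over control cells (x axis) of each tested gene in 9 gene lists (rows), in vehicle (left) and under IL-4 (right). Red points passed at a limma adjusted p under 0.05 and black bars are list medians. The 9 genes reported here have medians of 0.386 and 0.546, and other LXR targets have medians of 0.0601 and -0.0264.

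Among lipoprotein receptor genes, Msr1, a scavenger receptor for modified LDL, was higher in KO cells by 0.90 (SE 0.09, limma adjusted p = 0.000279) in vehicle and 0.53 (SE 0.10, limma adjusted p = 0.0122) under IL-4. Scarb1, the HDL receptor SR-BI, was higher by 0.58 (SE 0.11, limma adjusted p = 0.0108) and 0.65 (SE 0.12, limma adjusted p = 0.0108). The Msr1 call under IL-4 was lost without control IL-4 array 12 (limma adjusted p = 0.0567), and the Scarb1 call in vehicle without KO vehicle array 6 (limma adjusted p = 0.0728). Vldlr, a substrate of MYLIP, was lower in vehicle at -0.69 (SE 0.17, limma adjusted p = 0.036), and a fixed slide block (limma adjusted p = 0.106) removed the call, as did 9 of the 13 fits with 1 array left out (limma adjusted p = 0.0536 to 0.161). Lrp8 did not pass in either KO comparison.

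Ch25h makes 25-hydroxycholesterol, a sterol that activates LXR and holds back SREBP processing. Of 9 tested sterol trafficking genes it was the 1 called lower in each KO comparison, and 1 was called higher. Over all genes 2.29% were called lower and 2.39% higher in vehicle, and 1.65% and 1.94% under IL-4. The list median was 0.0364 in vehicle and -0.0365 under IL-4, against 0.0222 and -0.0282 over all genes. Ch25h averaged -2.54 ± 0.44 in KO vehicle cells (SD, n = 3) and -0.77 ± 0.22 in control vehicle cells (SD, n = 4), a difference of -1.77 (SE 0.23, limma adjusted p = 0.000915). Under IL-4 it averaged -2.92 ± 0.37 in KO cells and -1.71 ± 0.25 in control cells (SD, n = 3 each), a difference of -1.22 (SE 0.24, limma adjusted p = 0.0164). That second call was lost without KO IL-4 array 14 or control IL-4 array 9 or 10 (limma adjusted p = 0.0635 to 0.0711). Stard4, a cytosolic sterol carrier, was higher by 0.72 (SE 0.13, limma adjusted p = 0.00848) and 0.67 (SE 0.14, limma adjusted p = 0.0221), and no other gene of that list passed. The Stard4 call was lost in vehicle without KO vehicle array 5 (limma adjusted p = 0.0509). Under IL-4 it was lost with slide as a fixed block (limma adjusted p = 0.0839) and without KO IL-4 array 14 or 15 or control IL-4 array 9 or 10 (limma adjusted p = 0.0776 to 0.084).

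Of the 13 tested SREBP-1c target genes, 2 were higher and 1 lower in vehicle (median 0.265), and 1 was higher and 1 lower under IL-4 (median -0.0148). Over all genes 4.68% were called in vehicle and 3.59% under IL-4, with medians of 0.0222 and -0.0282. Elovl6, a fatty acid elongase, was higher by 0.94 (SE 0.14, limma adjusted p = 0.00213) and 0.63 (SE 0.15, limma adjusted p = 0.0383). Elovl5, another elongase, was higher in vehicle by 0.40 (SE 0.10, limma adjusted p = 0.0412), which 10 of the 13 fits with 1 array left out lost (limma adjusted p = 0.0585 to 0.214), and under IL-4 was at 0.22 (limma adjusted p = 0.375). A fixed slide block also removed the Elovl5 call (limma adjusted p = 0.0516). The Elovl6 call under IL-4 was lost with slide as a fixed block (limma adjusted p = 0.0881) and in 11 of the 13 fits that left out an array (limma adjusted p = 0.0505 to 0.155). Me1, malic enzyme, was lower at -1.11 (SE 0.21, limma adjusted p = 0.00938) and -1.04 (SE 0.22, limma adjusted p = 0.0238). The Me1 call was lost without KO vehicle array 5 in vehicle (limma adjusted p = 0.0509), and without KO IL-4 array 13 or 15 or control IL-4 array 9 or 12 under IL-4 (limma adjusted p = 0.0642 to 0.0896), and there also with slide as a fixed block (limma adjusted p = 0.0571). Fasn, fatty acid synthase, was at 0.54 (limma adjusted p = 0.0934) and 0.42 (limma adjusted p = 0.264). Scd1 was at 1.44 (limma adjusted p = 0.084) and 1.41 (limma adjusted p = 0.132), so the desaturase change passed for Scd2 alone, though Scd1 was not tested against it.

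The cholesterol synthesis genes that SREBP-2 controls were measured for all 22 listed. In KO cells 7 were higher and 0 lower in vehicle (median 0.369), and 9 higher and 0 lower under IL-4 (median 0.346). Over all genes 2.39% were called higher in vehicle and 1.94% under IL-4, with medians of 0.0222 and -0.0282. Over the fits that left out an array these counts ran from 3 to 10 in vehicle and from 4 to 8 under IL-4, and in 12 other settings from 1 to 11 in vehicle and from 1 to 12 under IL-4. Fdft1, squalene synthase, was higher by 0.61 (SE 0.10, limma adjusted p = 0.0044) and 0.69 (SE 0.11, limma adjusted p = 0.00421), with both of its probes between 0.57 and 0.69. Mvd, a mevalonate pathway enzyme, was higher by 0.64 (limma adjusted p = 0.0268) in vehicle and 1.05 (SE 0.15, limma adjusted p = 0.00314) under IL-4. The vehicle call of Mvd was lost in 6 of the 13 fits that left out an array (limma adjusted p = 0.0612 to 0.124). A fixed slide block also removed it (limma adjusted p = 0.055). Srebf2 did not pass, at 0.37 (limma adjusted p = 0.0586) and 0.35 (limma adjusted p = 0.109).

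None of the 5 tested of 10 other apolipoprotein genes (Apoa2, Apoa4, Apob, Apod and Clu) passed in any comparison, and their median KO difference was -0.208 in vehicle and -0.355 under IL-4. Of 11 tested ABC transporters of families A and G besides Abca1 and Abcg1, 0 were higher and 2 lower in vehicle. Of all genes 2.39% were higher and 2.29% lower there. Under IL-4 0 of the 11 passed, where 3.59% of all genes did. The lower ones were Abcg2, a drug and urate exporter, at -0.57 (SE 0.10, limma adjusted p = 0.00516), and Abca9. The 2 Abcg2 probes ran from -0.57 to -0.25, and the 3 Abca9 probes from -0.45 to 0.45. With the mean over probes both calls were lost (limma adjusted p = 0.122 for Abcg2 and 0.997 for Abca9). The Abca9 call was also lost without KO vehicle array 5 or 6 (limma adjusted p = 0.0592 and 0.0735). Lpl, the lipase that Apoc2 activates, was at 0.30 (limma adjusted p = 0.109) in vehicle and 0.12 (limma adjusted p = 0.655) under IL-4.

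As a description of likeness across the 13 arrays, which share the 4 groups, Apoe ran closest to Irf2bp2 (Pearson r = 0.965), Apoc2 (r = 0.964) and Ndst1 (r = 0.958). Apoc2 ran closest to Sema4a (r = 0.982), Entpd1 (r = 0.979) and Fabp5 (r = 0.977), and Abca1 to Vcl (r = 0.974), Btg1 (r = 0.969) and Ptpn12 (r = 0.967). For Abcg1 the nearest genes were Csnk1a1 (r = 0.950), Slc25a13 (r = 0.948) and Fem1b (r = 0.945). For Mylip they were Snx2 (r = 0.948), Klf6 (r = 0.943) and Cav2 (r = 0.942). Once each group's mean was removed, r was 0.118 between Apoe and Apoc2 and 0.101 between Apoc1 and Apoc2. These apolipoproteins thus ran together between groups and not within them. Within groups r was 0.881 between Srebf1 and Pltp and 0.852 between Mylip and Scd2, against 0.577 and -0.177 over all arrays. Control vehicle array 2 was the lowest of its group for both Mylip and Scd2, and its part in their r was not tested.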

How the data were processed

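RNA was amplified with the NuGEN Ovation kit and labelled with Cy3, per the labels' protocols. The deposited scanner files hold spot intensity on a linear scale, extracted with Agilent Feature Extraction 10.5.1.1 per the file headers; the submitters' processing notes name version 9.53 and limma. The authors' deposited value table (39280 rows of linear intensity, median 181 to 181.5 and 75th percentile 772 in the columns) was used as an alternative; how the authors normalized it is not given in the sources used here. Probe coordinates are mm9.

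Control spots, outlier spots and 101 probes with outliers on every spot of an array were left out, spots of a probe were averaged, and log2(gProcessedSignal) minus each array's 75th percentile was taken. No spot was saturated. A probe entered the test (29059 did) if all arrays of some group had it well above background, and the brightest probe stood for its gene (20894 genes). Groups came from sample titles. Limma 3.58.1 in R 4.3.3 fitted 4 group means over 13 arrays with empirical Bayes, two-sided, with Benjamini-Hochberg adjustment over all genes, and was checked on simulated data. The genes, lists and tests were chosen with earlier results of these data known. The genes named are the 10 members, Hdac3, called genes of fixed pathway lists (at most 6 a list and comparison, by p; others are given by value; some are not reported here), and the 3 genes most like Apoe, Apoc2, Abca1, Abcg1 and Mylip. Alternatives changed the normalization, background correction, probe filter and choice, slide block, variance model or arrays. The number of arrays limits the precision.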

Additional observations from a re-analysis of the deposited data

Results flagged for a closer look

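Control vehicle array 2 stood apart from the other 3 arrays of its group for a pair of genes. For Scd2 it was at a log2 level of 0.748, with the others at 1.45 to 1.54, and its gap was 0.881 of the group's whole range. For Mylip it was at 3.25, with the others at 3.55 to 3.61, and its gap was 0.844 of the range. Both exceed Dixon's 95% critical value for 4 arrays, which chance passes in about 1 of 20 groups. Other groups have 3 arrays and were not examined this way.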

How the results depend on the processing

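The groups share no array number, so arrays were not paired by number. Slides hold arrays of several groups, and slide was used as a block, fixed or random (random block correlation 0.0368). Of the 9 genes, 5 were called for HDAC3 loss in vehicle, with 3 under median scaling and 3 to 5 over the fits that left out an array. For HDAC3 loss under IL-4 5 were called, with 2 when only the compared groups were fitted and 4 to 6 without an array. For IL-4 in control cells 4 were called, with 1 under median scaling, 1 when only the compared groups were fitted, 2 without control vehicle array 4 and KO IL-4 array 15 (an alternative chosen after seeing the data) and 1 to 5 without 1 array. For IL-4 in KO cells 0 were called, with 2 under quantile normalization, 5 under normexp, 2 in the authors' values, 1 with slide as a fixed block, 4 with trended and robust variance and 0 to 1 without an array. The interaction stayed at 0 in every fit. The Apoe value for IL-4 in KO cells turned positive under quantile normalization (0.0932), normexp (0.0882), median scaling (0.0781) and in the authors' values (0.0334), and ran from -0.0664 to 0.00209 over the fits that left out an array, positive without KO IL-4 array 14. The Pltp value there ran from -0.124, without that array, to 0.425; the cause was not tested. Of the single-gene values recomputed, 1045 kept direction and side of the threshold, 39 lost and 26 gained a call, and 6 changed sign. The interaction could not be run with only the compared groups. Median scaling shifted the all-gene median for IL-4 in KO cells by 0.106.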

Other observations

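Among macrophage markers, Itgam, the integrin CD11b, was higher in KO cells by 1.43 (SE 0.17, limma adjusted p = 0.000607) in vehicle and 1.84 (SE 0.18, limma adjusted p = 0.000358) under IL-4. Fcgr1, the high-affinity IgG receptor, was lower, at -0.68 (SE 0.15, limma adjusted p = 0.0259) and -0.68 (SE 0.16, limma adjusted p = 0.0418). Those Fcgr1 calls were lost in 5 and 11 of the 13 fits that left out an array (limma adjusted p = 0.0588 to 0.144 and 0.0522 to 0.159). With IL-4 Fcgr1 was at -0.81 in both KO cells (limma adjusted p = 0.0238, lost in 4 of those fits at 0.0545 to 0.0734) and control cells (limma adjusted p = 0.00778). Egr1, an immediate early gene, was lower in KO cells, at -0.74 (SE 0.09, limma adjusted p = 0.000607) in vehicle and -0.55 (SE 0.09, limma adjusted p = 0.00759) under IL-4. Fos, another immediate early gene, was higher in KO cells under IL-4 by 0.72 (SE 0.10, limma adjusted p = 0.00268), and was at 0.13 (SE 0.10, limma adjusted p = 0.742) in vehicle. Csf1r, a receptor of macrophages, was higher in KO cells in vehicle by 0.41 (SE 0.09, limma adjusted p = 0.0271), and lost the call in 6 of the 13 fits (limma adjusted p = 0.0643 to 0.111) and with slide as a fixed block (limma adjusted p = 0.0621).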
